A study of Mus musculus with 8 samples.

Results

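The 10 genes described here encode the glucocorticoid receptor (*Nr3c1*), the related mineralocorticoid receptor (*Nr3c2*), cochaperones and enzymes that set how much hormone reaches these receptors, and genes that glucocorticoid is known to induce. They were listed by name, and their probes were found through the RefSeq accession that the array files give for each probe. All 10 genes had a probe, and *Nr3c1* had a pair of them, so that 11 of the 39429 probes on the array stood for these genes. Each of the 11 was bright enough to be tested, among 28553 probes tested in all. The comparison was between AtT20 cells, a mouse line of pituitary corticotroph tumor cells, left without agonist (control, n = 4) and the same cells given HX630 at 10 μM (n = 4), a synthetic agonist of the retinoid X receptors (RXRs). Both groups were kept for 48 hr in medium with 1% serum that had been stripped, which the methods describe as treatment with resin and charcoal. The labels name no added glucocorticoid in either group, and the hormone left in the medium was not measured on these arrays.

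Glucocorticoid receptor is held in the cytoplasm by a complex of Hsp90 and immunophilin cochaperones until hormone binds, after which it enters the nucleus and binds DNA at paired hexamers or acts through other factors. In corticotrophs it carries the negative feedback by which adrenal hormone lowers *Pomc* transcription and ACTH secretion. Charcoal treatment of serum is used to take out steroids, and RXR does not pair with the glucocorticoid receptor in the way it pairs with the receptors for thyroid hormone, vitamin D or retinoic acid.

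Of the 10 genes, 2 fell and none rose. *Sgk1*, a kinase named for its induction by serum and glucocorticoid, fell to 43.8% of control, and *Hsd11b1*, the enzyme that regenerates active corticosterone from its inert keto form, fell to 49.3%. A gene was called at an adjusted p below 0.01 (limma, Benjamini-Hochberg over all probes tested) together with a fold change above 1.5, and it was represented by its brightest tested probe. The share called was 20% of the 10 genes, beside 19.5% of the 15320 genes tested on the whole array, of which 8.39% were called up-regulated and 11.1% down-regulated. The count of calls among these genes was thus near the background. Of the 8 genes not called, *Fkbp5* lay just under the fold threshold at 1.49-fold higher. By fitted change, 5 of the 10 genes were higher and 5 lower with HX630. *Tsc22d3* moved from the lower to the higher side when arrays were scaled to their spike-in probes. *Hsd11b2* moved from the higher to the lower side with normexp background correction, and it was above background on only 1 control array. By the adjusted p alone, with no fold threshold, 3 of the 10 were higher and 3 lower, beside 51.2% of all genes tested. Their median log2 change was 0.012, against -0.034 for all genes tested. For 7 of the 10 the 4 HX630 arrays all lay on one side of the 4 control arrays, beside 61.5% of all genes tested. The arrays read RNA of whole cultures, so that a change in the share of cells expressing a gene and a change in RNA per cell cannot be told apart.

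**Figure D1:**
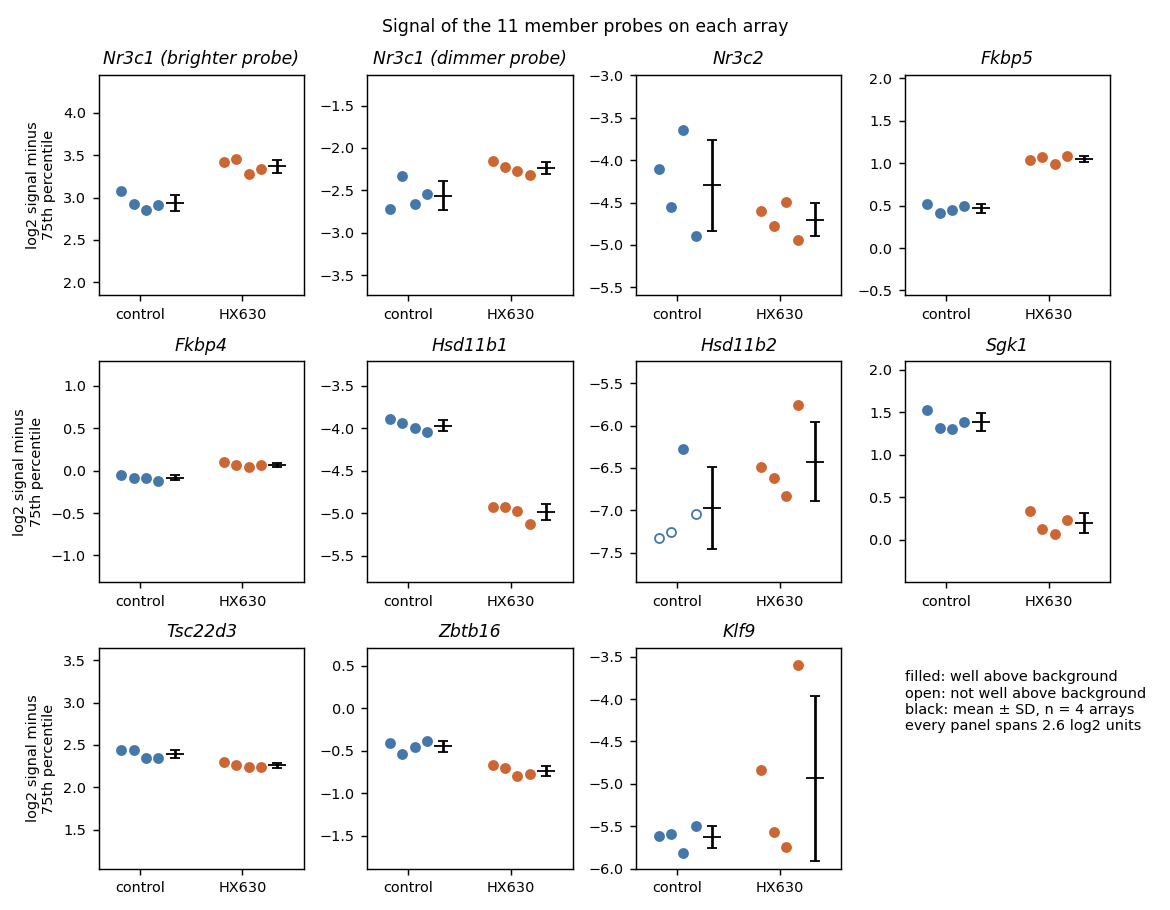
Signal of each of the 11 probes on each of the 8 arrays, on the y axis as log2 signal relative to the array's 75th percentile, for control (blue) and HX630 (orange), with the mean and SD of 4 arrays in black. Every panel spans the same height; the groups stand far apart for *Sgk1*, *Hsd11b1* and *Fkbp5*, and they overlap for *Nr3c2*, *Hsd11b2* and *Klf9*.

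Signals are given as the log2 of the processed intensity minus the 75th percentile of its array, so that 0 stands for that percentile. They compare arrays for one probe and not one probe with another. On each array 69.7% to 73.5% of probes passed the scanner software's test against background, and no spot was saturated. The control arrays shared 1 slide and the HX630 arrays the other, so slide and treatment cannot be told apart. On the whole array 18.6% of the probes tested were called, and 40.1% of these were higher with HX630, a share that became 49.8% with quantile normalization, 51.6% with the array median and 68.9% with spike-in scaling. Spike-in scaling moved all probes upward by 0.22 on the log2 scale. The labels do not say whether the 4 samples of a group came from separate cultures, and the p-values then measure only the spread between these samples.

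Among the markers of the corticotroph, 5 of 6 were measured. *Pomc*, the ACTH precursor gene, had a control signal of 8.03 ± 0.18 (SD, n = 4), *Tbx19* of 1.74 ± 0.054, *Neurod1* of 1.29 ± 0.16, *Pcsk1* of 6.16 ± 0.067 and *Crhr1* of -1.02 ± 0.028, while *Avpr1b* was well above background on 0 arrays. Of 10 markers of other pituitary cells, *Prl*, *Tshb* and *Cga* were above background on 0 arrays, *Gnrhr* on 1 and *Fshb* on 3. The other 5 (*Gh*, *Lhb*, *Pou1f1*, *Nr5a1* and *Ghrhr*) could be tested. Summed over the 10 genes, the signal of these markers was 34.4% to 53.4% of the 75th percentile in control and 35.2% to 41.4% with HX630, and the ranges overlapped. The same sum over the 6 corticotroph markers was 29400% to 36800% in control and 21200% to 22200% with HX630, without overlap. *Gh*, which encodes growth hormone, was the one marker of another cell type that was called, at -0.79 on the log2 scale (SE 0.12), and its part in the results was not tested. No such marker was called lower with spike-in scaling, and 1 was called higher with the replicate block, with array weights and without control replicate 1.

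The promoters of the genes that fell, *Sgk1* and *Hsd11b1*, and of *Fkbp5* are shown for reference. Of 6 *Sgk1* promoters, the one shown was picked because it holds a full glucocorticoid response element, and the other 5 hold none. They are RefSeq sequences on mouse build GRCm38.p6, 300 bases each, from 250 bases before the start of transcription to 50 after it, written 5′ to 3′ on the strand of the gene. Capitals mark matches to the hexamer AGAACA on either strand of the window. They also mark the glucocorticoid response element, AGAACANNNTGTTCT, which is that hexamer, 3 free bases and its reverse complement, and so reads alike on both strands. In the *Fkbp5* and *Hsd11b1* windows neither was found, so these sequences are wholly in lower case.
*Sgk1* (chr10:21993640-21993939, plus strand): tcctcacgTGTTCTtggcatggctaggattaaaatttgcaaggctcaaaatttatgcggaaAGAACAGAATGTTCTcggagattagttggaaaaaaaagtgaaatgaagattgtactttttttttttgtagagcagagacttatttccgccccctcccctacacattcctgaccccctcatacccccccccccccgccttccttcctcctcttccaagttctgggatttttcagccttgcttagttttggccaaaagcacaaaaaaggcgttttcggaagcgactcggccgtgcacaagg
*Hsd11b1* (chr1:193242311-193242610, minus strand): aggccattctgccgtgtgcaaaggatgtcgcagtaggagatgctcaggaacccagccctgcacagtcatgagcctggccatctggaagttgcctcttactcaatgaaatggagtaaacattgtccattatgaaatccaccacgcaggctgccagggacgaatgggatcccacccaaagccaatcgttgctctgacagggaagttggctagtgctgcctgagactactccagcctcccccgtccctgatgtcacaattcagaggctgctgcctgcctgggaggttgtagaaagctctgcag
*Fkbp5* (chr17:28486100-28486399, minus strand): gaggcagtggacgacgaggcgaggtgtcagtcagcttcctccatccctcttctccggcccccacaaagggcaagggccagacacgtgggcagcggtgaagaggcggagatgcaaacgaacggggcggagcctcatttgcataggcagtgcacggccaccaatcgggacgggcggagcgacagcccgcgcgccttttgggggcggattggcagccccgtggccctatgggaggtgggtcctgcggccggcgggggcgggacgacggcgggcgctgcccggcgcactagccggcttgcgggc
The table of promoters held 14 for 7 of the 10 genes, with 6 for *Sgk1* and 3 for *Tsc22d3*, and it listed none for *Nr3c1*, *Hsd11b2* and *Zbtb16*. The full element occurred in 3 of 32851 mouse promoters (0.00913%), and the *Sgk1* start at chr10:21993640-21993939 was 1 of these 3. There it reads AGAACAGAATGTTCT, at positions 21993701 to 21993715, with its first base 189 bases before the start. The hexamer alone, which the element contains, stood in 4 of the 14 promoters, all of *Sgk1* or *Tsc22d3*, beside 19% of all promoters. AGGTCA, the hexamer that RXR and its partners bind, stood in 2 of the 14, both of *Sgk1*, beside 16.3% of all promoters. A match describes the letters of the window only. Elements known to respond to glucocorticoid in *Fkbp5* lie in its introns, outside the window shown.

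The first question was whether the receptors themselves differed. *Nr3c1* encodes the glucocorticoid receptor. Its brighter probe read 3.07, 2.92, 2.85 and 2.92 on the 4 control arrays and 3.42, 3.45, 3.27 and 3.33 on the 4 HX630 arrays. Every HX630 array lay above every control array, by at least 0.20. The log2 change was 0.43 (SE 0.061, 95% interval 0.29 to 0.57), which is 135% of control (limma, adjusted p = 5.37e-04), and it did not reach the fold threshold. The second, dimmer probe of the same transcript read -2.71, -2.33, -2.67 and -2.54 in control and -2.15, -2.22, -2.27 and -2.32 with HX630. Here the groups were separate by only 0.012, control replicate 2 lying next to HX630 replicate 4. Its change was 0.32 (SE 0.086, limma adjusted p = 0.0128), or 125% of control. Between the probes the changes differed by 0.11 (SE 0.12), with overlapping groups. With spike-in scaling the brighter probe reached 0.65 and was called.

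*Nr3c2* encodes the mineralocorticoid receptor, which binds corticosterone with higher affinity than the glucocorticoid receptor does. It read -4.11, -4.56, -3.64 and -4.89 in control and -4.60, -4.77, -4.50 and -4.94 with HX630. The groups overlapped, the control arrays being the more scattered. The change of -0.40 (SE 0.26, 95% interval -1.0 to 0.19) did not pass the test (limma adjusted p = 0.212, two-sided exact permutation p = 0.257), and its interval held both no change and a difference of -1.0. It was -0.19 without control replicate 3 and -0.60 without control replicate 4, and it was called under none of 25 other settings. Of the 4 other steroid receptor genes listed, 2 could be tested and neither was called.

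The cochaperones that ride on the receptor complex came next. *Fkbp5* encodes FKBP51, which keeps the receptor in a state of low affinity for hormone and is itself among the genes most readily induced by glucocorticoid. It read 0.53, 0.41, 0.45 and 0.49 on the control arrays and 1.04, 1.07, 1.0 and 1.09 on the HX630 arrays. The groups were separate, with a gap of 0.47 and little scatter in either. The log2 change was 0.58 (SE 0.039, 95% interval 0.49 to 0.67, limma adjusted p = 8.73e-06), just short of the threshold of 0.585 on this scale. It was called under 8 of 25 other settings, among them scaling by quantiles, by the array median, by detected probes and by spike-in probes, and without control replicate 1 or 4 or HX630 replicate 3. Its estimate lay between 0.56 and 0.80 under all 25.

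*Fkbp4* encodes FKBP52, the cochaperone that takes the place of FKBP51 when hormone binds and links the receptor to transport toward the nucleus. Its signals were -0.047, -0.089, -0.081 and -0.12 in control and 0.099, 0.070, 0.043 and 0.069 with HX630. The groups did not overlap, but the step was small, at 0.16 (SE 0.032, 95% interval 0.081 to 0.23, limma adjusted p = 0.00366) or 111% of control. Taken within each array, the change of *Fkbp5* exceeded that of *Fkbp4* by 0.43 on the log2 scale (SE 0.031), and the groups of this difference did not overlap. That pair and 4 others were chosen after their values were seen, and they are given as descriptions with no test.

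Among 14 other genes of the chaperone machinery, all measured, 0 rose and 2 fell by the brightest probe, beside the 8.39% and 11.1% of all genes. Their median was -0.088, and with quantile normalization it was 0.083, with 1 called up and 1 down. *Hspa1a*, the heat-inducible Hsp70, fell from -4.13 ± 0.15 to -5.99 ± 0.15 (SD, n = 4), to 27.7% of control (limma adjusted p = 2.20e-06). *St13*, which encodes the Hsp70-interacting protein Hip that helps assemble the complex, fell to 65.2% (limma adjusted p = 2.37e-05). *Bag1* and *Dnaja1*, named after their values were seen, passed both thresholds upward by another probe. These probes gave 0.65 and 0.67 (limma adjusted p = 4.76e-06 and 4.96e-05), against 0.55 and -0.033 by the brightest. Of 14 coregulators that the receptor recruits, 1 fell and 0 rose by the brightest probe, with a median of 0.20 against -0.034 for all genes. None fell with spike-in scaling, with normexp or with the probes of a gene averaged. The other probe of *Ncor1*, named after its values were seen, gave 0.76 (limma adjusted p = 1.93e-06), against 0.30 by the brightest.

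**Figure D2:**
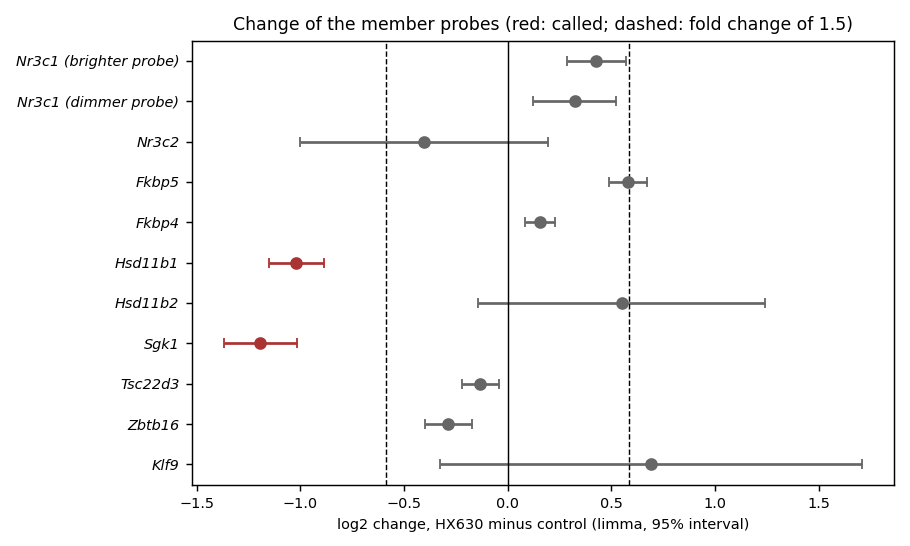
Log2 change of HX630 minus control for each of the 11 probes, with the 95% interval from limma on the x axis and called probes in red. *Sgk1* and *Hsd11b1* lie beyond the dashed line of a 1.5-fold change, *Fkbp5* at 0.58 lies against it, and the intervals of *Nr3c2*, *Hsd11b2* and *Klf9* include 0.

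The enzymes that set hormone at the receptor differed from each other in how well they could be measured. *Hsd11b1* acts in the reducing direction in cells and so raises active hormone. Its probe is spotted 10 times on each array, and the mean of the spots was -3.90, -3.94, -4.0 and -4.05 in control and -4.92, -4.93, -4.97 and -5.12 with HX630. All 4 HX630 arrays lay at least 0.88 below all control arrays. The log2 change was -1.02 (SE 0.057, 95% interval -1.15 to -0.89, limma adjusted p = 3.27e-06). All 10 spots were well above background on every array, although the gene was dim, with intensities of 88.6 to 117 in control and 54.5 to 60.4 with HX630. Within an array the 10 spots had an SD of 0.157 to 0.222 in control and of 0.302 to 0.534 with HX630, counting the 1 spot on replicate 4 of each group that was marked as an outlier and kept out of the mean. Under 25 other settings the change ran from -1.04 to -0.80, and it was called in all 25.

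*Hsd11b2* encodes the opposite enzyme, which turns corticosterone into the inert form and in kidney shields the mineralocorticoid receptor. It read -7.33, -7.26, -6.28 and -7.04 in control, where replicate 3 alone was clearly above background. With HX630 it read -6.49, -6.62, -6.83 and -5.76, all 4 above background. The groups overlapped, and the change of 0.55 (SE 0.30, 95% interval -0.14 to 1.24) did not pass the test (limma adjusted p = 0.149, two-sided exact permutation p = 0.171). The probe met the filter for testing through its HX630 arrays, and with most control arrays at background the size of its change cannot be read. Normexp background correction turned the sign, to -0.24. Of 6 other genes for supply, breakdown or export of steroid, 5 were tested and 1 was called, 20% beside 19.5% of all genes. Without HX630 replicate 2 the list had 2 genes called lower, and without control replicate 1 it had 1 called higher. The 1 called was *Srd5a1*, a reductase that starts the breakdown of corticosterone, which fell from 0.62 ± 0.092 to -1.19 ± 0.090 (SD, n = 4), or to 28.6% of control (limma adjusted p = 3.86e-07).

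By fitted change, the genes among the 10 known for their induction by glucocorticoid lay on both sides of 0, and none of them was called higher. *Sgk1* encodes a kinase that, among other tasks, keeps epithelial sodium channels at the cell surface. It read 1.53, 1.31, 1.3 and 1.39 in control and 0.34, 0.12, 0.070 and 0.24 with HX630. The groups were separate by 0.96, more than the spread within either. The log2 change was -1.19 (SE 0.076, 95% interval -1.37 to -1.02, limma adjusted p = 6.15e-06), and its size exceeded that of 95% of all probes tested. It was called under all 25 other settings. Within arrays, *Hsd11b1* and *Sgk1* changed by amounts that differed by 0.17 (SE 0.092), with overlapping groups, whereas *Fkbp5* and *Sgk1* moved apart by 1.77 (SE 0.064).

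*Tsc22d3* encodes GILZ, a leucine zipper protein that carries part of the anti-inflammatory action of glucocorticoid. Its signals were 2.44, 2.44, 2.35 and 2.35 in control and 2.30, 2.26, 2.24 and 2.24 with HX630. All HX630 arrays lay lower, by a margin of 0.041. The change was -0.13 (SE 0.038, 95% interval -0.22 to -0.043, limma adjusted p = 0.0184), or 91.3% of control, so the interval lay well inside the fold threshold. Set against the median of all genes the change was -0.098, and with spike-in scaling its sign turned, to 0.089. Within arrays the change of *Fkbp5* exceeded that of *Tsc22d3* by 0.71 (SE 0.046).

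*Zbtb16* encodes PLZF, a zinc finger repressor that glucocorticoid and progestin induce in many tissues. It read -0.41, -0.54, -0.46 and -0.39 in control and -0.67, -0.71, -0.79 and -0.77 with HX630. The groups did not overlap, and the change was -0.29 (SE 0.048, 95% interval -0.40 to -0.17, limma adjusted p = 0.00133), or 82.0% of control. It remained under the fold threshold, as did the estimates from all 25 other settings, which ran from -0.32 to -0.065.

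*Klf9* encodes a Krüppel-like factor that glucocorticoid and thyroid hormone both induce. It read -5.62, -5.59, -5.81 and -5.50 in control and -4.84, -5.57, -5.75 and -3.59 with HX630. Replicates 1 and 4 of HX630 stood above all control arrays, while replicates 2 and 3 lay among them. The change of 0.69 (SE 0.44, 95% interval -0.33 to 1.71) did not pass the test (limma adjusted p = 0.211, two-sided exact permutation p = 0.257), and it was 0.24 without HX630 replicate 4. The spread of this probe within groups was larger than that of 98.5% of probes. Its intensities were 27.2 to 37.2 in control and 34.1 to 157 with HX630.

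For the 7 genes with groups that did not overlap, the exact permutation test of a single probe gave p = 0.0286, the smallest that 4 arrays against 4 can give over 70 regroupings.

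**Figure D3:**
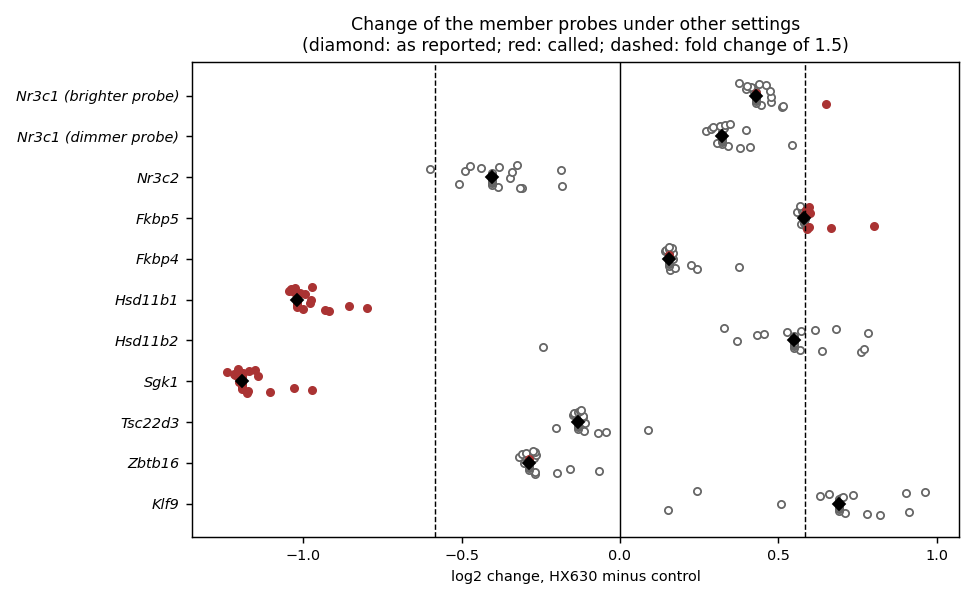
Log2 change of each of the 11 probes as reported (diamond) and under each other scaling, filter, test or array left out (circles, red where called), on the x axis. *Sgk1* and *Hsd11b1* were called at every setting, *Fkbp5* at 8 of 25, and *Tsc22d3* and *Hsd11b2* each crossed 0 at 1 setting.

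A wider list of 42 genes that glucocorticoid is known to induce, without the genes above, was set beside these. The list was written from general knowledge but with earlier results of these data known, so its share of calls is a description and not a test. Of 36 that could be tested, 4 rose and 14 fell, so that 50% were called, against 19.5% of all genes tested, by adjusted p and fold. Their median change was -0.19, against -0.034 for all genes. The median was -0.087 without control replicate 1, and with spike-in scaling it was 0.029, while that of all genes became 0.19. Calls in the list were 7 up and 11 down with spike-in scaling, and 2 up and 12 down with normexp. *Mt2*, a metallothionein that binds zinc and copper, fell from 5.98 ± 0.043 to 4.25 ± 0.063 (SD, n = 4), to 30.3% of control (limma adjusted p = 1.23e-07). *Trim63*, a ubiquitin ligase of muscle wasting, was also called, but it passed the background test on all 4 control arrays and on 1 of the HX630 arrays, so that the size of its change cannot be read. With probes above background on all 8 arrays, 13 genes of the list fell. *Tat*, the liver enzyme tyrosine aminotransferase that served as an early model of hormone induction, fell to 37.5% (limma adjusted p = 5.13e-07).

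The largest rise in that list was of *Txnip*, which encodes an inhibitor of thioredoxin and of glucose uptake. Its brighter probe rose from -2.64 ± 0.072 to -0.78 ± 0.095 (SD, n = 4), a change of 1.86, but its other probe gave -0.15 (limma adjusted p = 0.0739), so that the probes disagree. *Nfkbia*, which encodes the NF-κB inhibitor IκBα, rose by 0.92 (SE 0.035, limma adjusted p = 5.42e-07). *Tnfaip3*, which encodes A20, another brake on NF-κB signaling, rose by 0.64 (SE 0.067, limma adjusted p = 9.50e-05). *Cebpd* also rose. The other genes that fell were *Nedd9*, *Irs2*, *Mt1*, *Tgm2*, *Cdkn1a*, *Errfi1*, *Dusp1*, *Per1*, *Cebpb*, *Per2* and *Fbxo32*, with changes from -1.32 to -0.61.

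**Figure D4:**
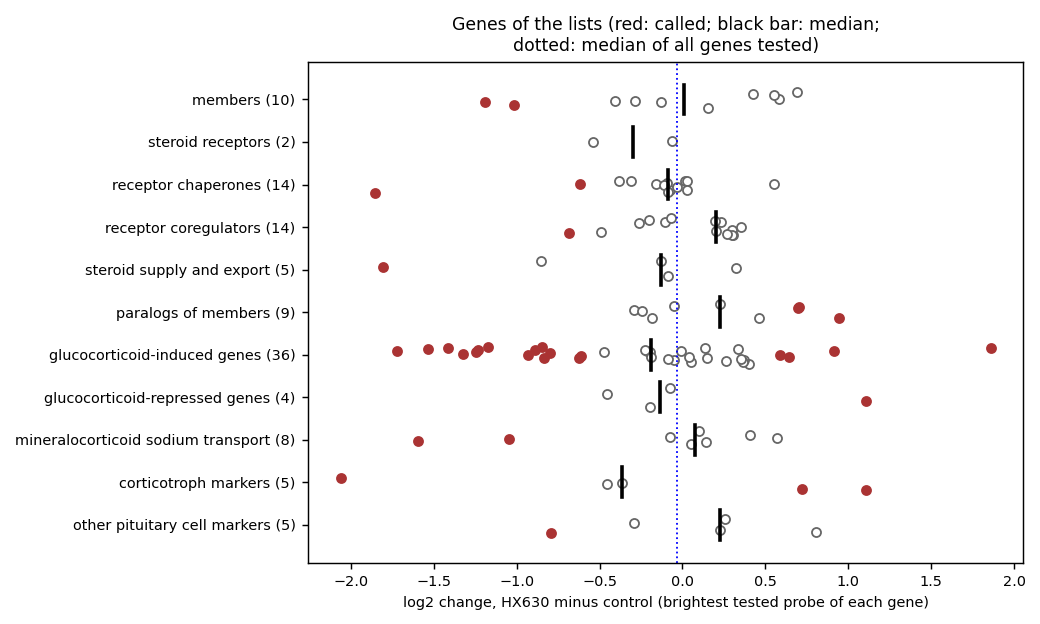
Log2 change of the brightest tested probe of each gene (circles, red where called) for the 10 genes and for each list, with the number tested in brackets, the list's median as a black bar and the median of all genes as a dotted line. Genes known to be induced by glucocorticoid lie on both sides, with 14 called lower and 4 called higher, and their median of -0.19 became 0.029 with spike-in scaling.

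Of 12 genes that glucocorticoid is known to repress, 4 were tested and 1 was called, 25% beside 19.5% of all genes. *Crhr1*, the receptor for corticotropin-releasing hormone, rose to 216% of control, with 1.11 (SE 0.042) by one probe and 1.23 by the other (limma adjusted p = 5.13e-07 and 2.80e-06). *Pomc*, which stands in this list and in that of corticotroph markers, had a change of -0.45 (SE 0.086, limma adjusted p = 0.00241), or 73.0% of control, short of the fold threshold. Of the other corticotroph markers, *Pcsk1*, which encodes a convertase that cuts POMC, fell by 2.06 (SE 0.052), *Neurod1* rose by 0.72 (SE 0.081) and *Tbx19* had a change of -0.37 (SE 0.052) that was not called.

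Downstream of the mineralocorticoid receptor and *Sgk1*, 8 of 11 genes of sodium transport were tested, with 2 called lower and 0 called higher, 25% beside 19.5% of all genes. Under other settings 0 to 2 were called higher. The median was 0.076, from 0.018 without control replicate 2 to 0.14 without control replicate 4, and -0.075 without the filter on dim probes. *Atp1b1*, which encodes a subunit of the sodium pump, fell from 5.15 ± 0.053 to 3.56 ± 0.088 (SD, n = 4), to 33.1% of control (limma adjusted p = 3.20e-07). *Nedd4l*, named after its values were seen, gave 0.57 by its brightest probe, short of the fold threshold, and 1.23 by the other (limma adjusted p = 4.64e-05 and 2.04e-06). Among 9 tested paralogs of the 10 genes, 3 rose and 0 fell, beside 8.39% and 11.1% of all genes, with a median of 0.23 against -0.034. Without the filter on dim probes the median was -0.051, and with the probes of each gene averaged 1 paralog was called lower. For *Sgk3*, the paralog of *Sgk1*, named here after its values were seen, the brighter probe gave -0.29 and the other -1.0 (limma adjusted p = 1.25e-05). The 3 that rose were *Zbtb20* (0.94, SE 0.12), a zinc finger repressor related to *Zbtb16*, and the Krüppel-like factors *Klf16* (0.70, SE 0.11) and *Klf13* (0.70, SE 0.034). The *Klf9* probe itself had an SE of 0.44, so that its change cannot be set against theirs.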

How the data were processed

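Total RNA of 8 AtT20 samples was labeled with Cy3 and hybridized to 1-color Agilent arrays, 1 array per sample. For each array the authors deposited the processed intensity of every spot after background subtraction, without scaling between arrays (Feature Extraction 10.7.3.1 per the submitters' processing notes). They also deposited a table of log2 values, made in GeneSpring, which was found to lie within 0.00144 of the values calculated here.

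The analysis used R 4.3.3 and limma 3.58.1. Of 44397 spots per array, 1377 control spots were dropped, and an outlier spot was left out only where its probe had another spot. The log2 intensities of repeated spots of a probe were averaged, and the 75th percentile of the array was then subtracted. A probe well above background on at least 4 of 8 arrays was tested with lmFit and eBayes over both groups without a replicate block, with Benjamini-Hochberg adjustment over the 28553 probes tested. Symbols came from RefSeq accessions in a gene table on GRCm38.p6, used for names, and 26055 of 39429 probes (66.1%) were matched, to 19751 genes. The number of arrays limits the precision, with a median SE of 0.0663 on the log2 scale.

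The 10 genes and the other lists were chosen with earlier results of these data known. Every probe of the 10 genes is named, with all marker genes and up to 3 called genes of each list in each direction. Some genes that this rule names are not reported here. The remaining called genes of the glucocorticoid-induced list were named after their values were seen. On simulated data of 28553 probes in HX630 against control with 200 changed by 1 on the log2 scale, the code recovered 78.5%, with 0 wrong directions and 0 false calls. The simulated noise was independent between probes and held no slide difference, and far fewer probes changed than were called here. It checks the code and cannot give the rate of false calls in these data. The alternatives were other scalings, background correction, filters, outlier spots kept, variance models, array weights, the deposited log2 table, the methods' t-test, other thresholds, the mean of a gene's probes, blocking on the replicate number, and omission of each array in turn. The real-time PCR, reporter, chromatin and animal experiments are not analysed here.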

Additional observations from a re-analysis of the deposited data

Results flagged for a closer look

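In each group of 4 arrays, the array farthest from the others was compared with the whole range of the group for each probe of the 10 genes and each list gene named by the rule. Of 72 groups, 5 held an array that stood apart, where chance gives 3.6, and none of the 22 groups of the glucocorticoid receptor and response gene probes did. The gap was 0.983 of the range for *St13* in control, where replicate 1 read 3.04 and the others averaged 2.94. For *Srd5a1* with HX630 it was 0.914, replicate 1 reading -1.05 against -1.23. For *Zbtb20* in control it was 0.85, replicate 2 reading 0.12 against 0.63. For *Gh* with HX630 it was 0.857, replicate 4 reading -5.64 against -5.95. For *Lhb* with HX630 it was 0.883, replicate 1 reading -2.79 against -3.0.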

How the results depend on the processing

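*Sgk1* and *Hsd11b1* were called down-regulated under every alternative, and no other gene of the 10 was called down except *Zbtb16* without a fold threshold. *Fkbp5* was called at 0.59 with quantile normalization, 0.67 with the array median, 0.60 with detected probes, 0.80 with spike-in scaling and 0.58 without a fold threshold, and it ran from 0.56 to 0.60 with each array left out. Without a fold threshold *Fkbp4* (0.16), the brighter *Nr3c1* probe (0.43) and *Zbtb16* (-0.29) were called too, and the *Nr3c1* probe also with spike-in scaling (0.65). Genes of the 10 called up numbered 1 by quantiles, by the median and by detected probes, 2 by spike-in scaling, 3 without a fold threshold, and 0 to 1 with each array left out. Reversals were *Hsd11b2* under normexp (-0.24) and *Tsc22d3* under spike-in scaling (0.089). Over the array, spike-in scaling called 4179 probes up and 1888 down, normexp called 1355 up, and the adjusted p alone called 5763 and 7236. Of the glucocorticoid-induced list 7 genes were called up by spike-in scaling, 2 by normexp and 10 without a fold threshold. Its median was -0.092 by quantiles, -0.10 by the median, 0.029 by spike-in scaling, -0.26 by normexp and -0.27 without a filter, and -0.21 to -0.087 with each array left out. For these changes the cause was not tested, except that the threshold's own construction sets those without it. The labels do not say that a replicate number marks a shared culture or day. Deviations of same-numbered arrays had r of 0.52, -0.012, 0.239 and 0.382, and 5 of 8 arrays correlated best with their own number, a hint of pairing that pair 2 did not show, so the block was kept as an alternative. With the replicate block 2213 probes were called up and 3343 down, and still 0 and 2 of the 10 genes. *Hsd11b2* gives no value where a probe must be above background on all 8 arrays, and for it and *Klf9* low signal limits the precision.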
